A study of Rattus norvegicus with 2 samples.

Results

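The genes described here carry the unfolded protein response and the integrated stress response of the rat retina, and they were chosen by symbol: 35 genes were listed, and the deposited gene table of 32662 genes held a row for 34 of them. The missing symbol was *Nupr1*. The samples were retinas of Long-Evans rats aged 2 months, taken after a sham procedure in the control (CTRL) or 12 hours after the blood flow was restored to an ischemic eye (IR12). The paper gives the sex as female. Each condition was sequenced as 1 library of total RNA depleted of ribosomal RNA, so no difference between the conditions had a replicate check and no p-value was computed. The comparison asks which transcripts of these stress pathways stood at another level after ischemia-reperfusion, with the targets of the factor Atf4 kept apart from the chaperones of the endoplasmic reticulum (ER).

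The unfolded protein response is set off when misfolded proteins build up in the ER. Sensors in the ER membrane then slow translation through phosphorylation of the initiation factor eIF2, and turn on transcription factors that raise chaperones, folding enzymes and the machinery that sends misfolded proteins to the proteasome. The integrated stress response shares the eIF2 step, which can also be reached from amino acid shortage, double-stranded RNA or heme deficiency, and its main effector is Atf4, a factor whose mRNA is translated better when eIF2 is phosphorylated. Retinal neurons and glia make large amounts of membrane and secreted protein, which pass through the ER.

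Levels are given as FPKM, fragments scaled by transcript length and by library size, as deposited, which allows levels of genes of different length to be set side by side. Differences are given as the log2 ratio of (FPKM + 1), IR12 over CTRL, a scale that understates the ratio of genes with low FPKM. A gene was tested when its FPKM reached 1 in at least 1 library, and called when it was at least 2-fold higher or lower on that scale. Of the 34 members with a row, 33 were tested, and all 33 reached an FPKM of 1 in CTRL as well, so none entered through IR12 alone. Of the 13599 genes tested in the whole table, 892 (6.56%) passed 2-fold with the higher value in IR12 and 832 (6.12%) with the lower one. Of the 33 members, 6 were at least 2-fold higher, namely *Atf5*, *Mthfd2*, *Sdf2l1*, *Shmt2*, *Asns* and *Manf*, and 1 was at least 2-fold lower, namely *Psat1*. At any size, 28 of the 33 members were higher in IR12, against 51.8% of all tested genes.

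The scale of the 2 columns bears on these counts. Added up over all genes, the FPKM column of CTRL comes to 1402321 and that of IR12 to 895199.9, and genes of small non-coding RNAs, recognised by symbol, make up 68.1% and 46.3% of these sums. Bringing both columns to the same sum (the TPM scale) multiplies IR12 by 1.57 and moves the median log2 ratio of all tested genes from 0.02 to 0.61, a shift of 0.59. On the TPM scale, 22.4% of all tested genes and 22 of the 33 members were at least 2-fold higher, while 3.48% of all tested genes and 0 members were at least 2-fold lower. The share of higher genes among all 2-fold calls was 51.7% as deposited and 86.6% on the TPM scale. Leaving the small RNAs out before the columns are brought to the same sum, a choice made after the data were seen, multiplies IR12 by 0.933 and shifts the median gene by -0.09. On that scale the share of higher genes among all 2-fold calls was 45.5%, so lower calls were the more frequent. Of the members, 28 lay above the median gene, a count that a common factor can move only through the pseudocount.

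**Figure D1:**
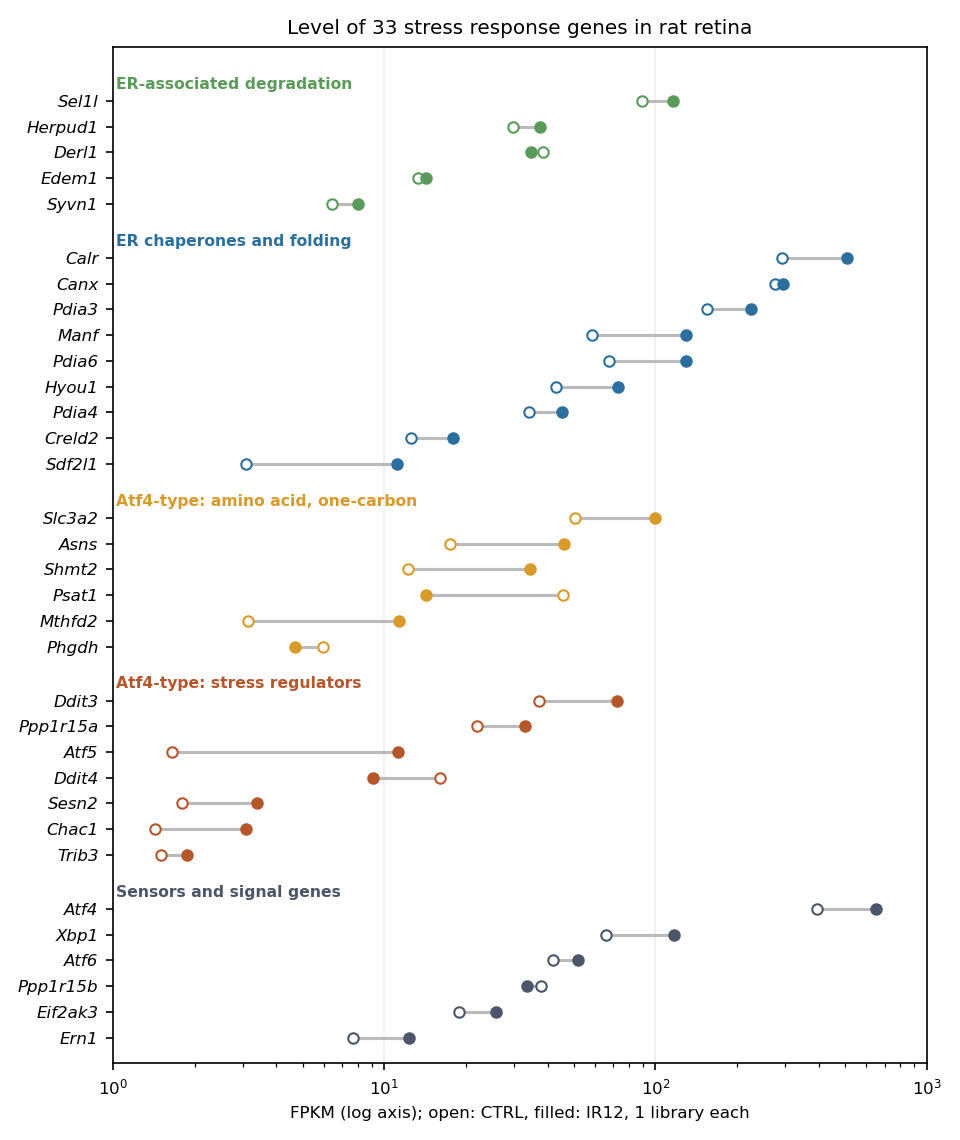
FPKM of the 33 tested members on a log axis, grouped by role, with CTRL as open and IR12 as filled circles, 1 library each. *Atf4* and *Calr* are the most abundant in both libraries, *Atf5* has the longest line to the right and *Psat1* the longest to the left.

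Among themselves the members spanned a wide range of levels. The highest FPKM in CTRL was 395 for *Atf4*, followed by 293 for *Calr*, 275 for *Canx* and 155 for *Pdia3*, and these 4 were the only members above 100 there. In IR12 there were 8 members above 100, with *Atf4* at 652 and *Calr* at 508 in front. At the other end, 6 tested members had less than 4 FPKM in CTRL, with *Chac1* at 1.42 the lowest. The summed FPKM of the 33 members was 1902 in CTRL and 2883 in IR12. Of these 6, 4 were stress regulators downstream of Atf4.

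The depth behind the low values could be read in part from the table. Genes with the same locus length under 1500 bp repeat the same smallest FPKM, which is what 1 fragment or a few are worth, and at 17 of 24 such lengths the smallest step in CTRL was 1.71 times that in IR12 (within 0.01). At a locus length of 948 bp the step was 0.0870 FPKM in CTRL and 0.0510 in IR12. The lowest CTRL value of a tested member, that of *Chac1*, was 16.4 times this step, although the step of *Chac1* itself depends on the length of its transcript, which is not used here. The CTRL values of *Chac1*, *Trib3*, *Atf5* and *Sesn2*, between 1.42 and 1.80 FPKM, were the smallest of the tested members, and their counting error is not known.

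The sensors and the factors they act on come first. *Eif2ak3* encodes PERK, the ER kinase that phosphorylates eIF2, and had 18.8 FPKM in CTRL and 25.8 in IR12 (log2 ratio 0.44). *Ern1* encodes IRE1, the kinase and nuclease that splices the *Xbp1* mRNA, and had 7.65 FPKM in CTRL and 12.3 in IR12 (log2 ratio 0.62). *Atf6*, the remaining sensor, is a factor released from the ER membrane by cleavage and had 41.9 FPKM in CTRL and 51.6 in IR12 (log2 ratio 0.29). All 3 sensors were higher in IR12, each by less than 2-fold.

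*Xbp1*, the factor that IRE1 activates by splicing, lies at chr14:85753760-85758145 on rn6 and had 65.8 FPKM in CTRL and 118 in IR12 (log2 ratio 0.83). It was higher in IR12, and 90.9% of all tested genes had a smaller log2 ratio. *Atf4*, at chr7:121480723-121482772, had 395 FPKM in CTRL and 652 in IR12 (log2 ratio 0.72), and was the member with the highest level in both libraries. The table gives 1 value per gene, so the spliced form of *Xbp1* mRNA and the translation of *Atf4* mRNA, the steps at which the pathway is known to act on these genes, were not analysed here. *Ppp1r15b*, the constitutive partner of the phosphatase that removes the phosphate from eIF2, had 37.9 FPKM in CTRL and 33.6 in IR12. Its log2 ratio was -0.17 as deposited but 0.47 on the TPM scale, so its direction depends on the scaling. The median log2 ratio of the 6 sensors and signal genes was 0.53, against 0.02 over all tested genes. As deposited none of the 6 was past 2-fold. On the TPM scale 4 were at least 2-fold higher, against 22.4% of all tested genes.

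The Atf4-type targets fall into stress regulators and enzymes or carriers of amino acid and one-carbon metabolism. Of the 8 stress regulators, 7 had a row and were tested, 6 were higher in IR12 and 1 of them by at least 2-fold. *Atf5*, a factor of the same family as Atf4 and itself under translational control by eIF2, lies at chr1:100808241-100810522 and had 1.65 FPKM in CTRL and 11.2 in IR12. This was 6.83 times the CTRL value (log2 ratio 2.21), the largest ratio of the 33 members, and 98.4% of all tested genes lay below it. *Atf5* was low in the sham retina and of medium level after ischemia-reperfusion, with 6.4% and 43.3% of the genes at or above 1 FPKM below it in CTRL and IR12. Its mRNA remained scarce beside that of *Atf4*, with a ratio of *Atf5* to *Atf4* of 0.00417 in CTRL and 0.0173 in IR12.

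*Ddit3* encodes CHOP, the factor linked to cell death under lasting ER stress, and had 37.1 FPKM in CTRL and 71.9 in IR12 (log2 ratio 0.94). Its level was high in both libraries beside the other regulators and higher in IR12. In the deposited table *Ddit3* shares its listed locus, chr7:70580198-70602310, with *Mars*, the methionyl-tRNA synthetase gene (41.7 FPKM in CTRL and 86.6 in IR12), so the split of reads between these overlapping genes is uncertain. *Ppp1r15a*, or GADD34, the inducible counterpart of *Ppp1r15b*, had 21.9 FPKM in CTRL and 32.9 in IR12 (log2 ratio 0.56). The ratio of *Ppp1r15a* to *Ppp1r15b*, which no scaling of the columns can move, was 0.580 in CTRL and 0.980 in IR12, so the inducible form came close to the constitutive one.

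The remaining stress regulators were scarce or went the other way. *Chac1*, which degrades glutathione, had 1.42 FPKM in CTRL and 3.09 in IR12, that is 2.17 times, but its log2 ratio with the pseudocount was 0.75. *Sesn2*, a stress-induced inhibitor of mTORC1, had 1.80 FPKM in CTRL and 3.40 in IR12 (log2 ratio 0.65). *Trib3*, a pseudokinase that dampens Atf4 and CHOP, had 1.5 FPKM in CTRL and 1.86 in IR12 (log2 ratio 0.20). These 3 were low in both libraries. *Ddit4*, or REDD1, an inhibitor of mTORC1 that is also known as a target of hypoxia and glucocorticoids, had 16.1 FPKM in CTRL and 9.11 in IR12 (log2 ratio -0.76), and was the only tested stress regulator lower in IR12. It was also lower on the TPM scale, with a log2 ratio of -0.16. For *Nupr1*, a stress factor of chromatin, RefSeq gives Nupr1l1 as an older symbol, and the row of that name was listed at 0 in both libraries.

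Atf4 binds CARE elements, composite sites for a factor of its family paired with a C/EBP factor. RefSeq promoter windows on GRCr8, from 250 bases before to 50 after the start, were matched by symbol to 29 of the 35 members (31 windows), with no window for *Pdia3*, *Pdia6*, *Ern1*, *Derl1*, *Manf* and *Atf6*. The CARE letters TGATGNAA were sought on both strands and were present in 3.98% of all 33469 windows and in those of 5 of the 29 members: *Chac1*, *Trib3*, *Nupr1*, *Ppp1r15b* and *Herpud1*. The stretches of the first 4 are shown 5′ to 3′ in the direction of the gene because these genes are known targets or feedback genes of the eIF2 step, with the match in capitals. It reads TTGCATCA or TTACATCA where it lies on the opposite strand.
Chac1, chr3:126795944-126795991: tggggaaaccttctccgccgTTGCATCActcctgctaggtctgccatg
Trib3, chr3:161275527-161275574: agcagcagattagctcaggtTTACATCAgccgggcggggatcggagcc
Nupr1, chr1:190645929-190645976: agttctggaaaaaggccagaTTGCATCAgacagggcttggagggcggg
Ppp1r15b, chr13:47129802-47129849: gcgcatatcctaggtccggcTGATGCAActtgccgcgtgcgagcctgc
The matches begin 167 bases before the start in *Chac1*, 21 in *Trib3*, 55 in *Nupr1* and 178 in *Ppp1r15b*. The windows of *Trib3* and *Nupr1* are on the minus strand and those of the others on the plus strand. No window of an amino acid or one-carbon member held these letters, which says only that they are not in these windows. A match describes the letters and was not tested as a binding site.

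Of the 6 amino acid and one-carbon genes, 3 were at least 2-fold higher and 1 at least 2-fold lower. *Asns*, at chr4:33743364-33761163, makes asparagine and is a textbook Atf4 target. It had 17.4 FPKM in CTRL and 46.1 in IR12, or 2.65 times (log2 ratio 1.35). *Slc3a2*, the heavy chain of amino acid exchangers at the cell surface, had 50.5 FPKM in CTRL and 99.9 in IR12 (log2 ratio 0.97), just short of the 2-fold limit. Both genes of asparagine synthesis and amino acid exchange were higher in IR12.

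The serine and folate route comes next. *Phgdh* encodes the first enzyme of serine synthesis and had 5.92 FPKM in CTRL and 4.68 in IR12 (log2 ratio -0.29, but 0.27 on the TPM scale). *Psat1*, at chr1:233124092-233145941, encodes the next enzyme and had 45.5 FPKM in CTRL and 14.2 in IR12, or 0.312 times (log2 ratio -1.61). *Psat1* was the only member at least 2-fold lower, with 2.87% of all tested genes below it, and it was lower on the TPM scale too, but just short of 2-fold there. *Shmt2*, at chr7:70824715-70829815, encodes the mitochondrial enzyme that takes a carbon unit from serine, and had 12.2 FPKM in CTRL and 34.6 in IR12, or 2.83 times (log2 ratio 1.43). *Mthfd2*, at chr4:115004448-115015965, acts next to it in mitochondrial folate metabolism and had 3.14 FPKM in CTRL and 11.3 in IR12, or 3.59 times (log2 ratio 1.57). Both mitochondrial folate genes were thus higher in IR12, whereas *Psat1* was higher in CTRL.

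Ratios between these genes within a library do not depend on the scaling. *Psat1* stood at 3.73 times the FPKM of *Shmt2* in CTRL and at 0.411 times in IR12. *Asns* stood at 0.383 times the FPKM of *Psat1* in CTRL and at 3.25 times in IR12. *Mthfd2* stood at 0.531 times *Phgdh* in CTRL and at 2.41 times in IR12. In each of these 3 pairs, chosen after the values were seen, the more abundant gene in CTRL was the less abundant one in IR12. Other pairs of the route did not cross, as *Psat1* stood at 7.68 times *Phgdh* in CTRL and at 3.04 times in IR12. *Psph*, the last enzyme of serine synthesis and not itself a member, had 11.4 FPKM in both libraries, or 0.251 times *Psat1* in CTRL and 0.805 times in IR12.

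Over the 13 tested Atf4-type targets, 10 were higher in IR12 as deposited, against 51.8% of all tested genes. At least 2-fold higher were 4 and at least 2-fold lower 1, against 6.56% and 6.12% of all tested genes. On the TPM scale these counts were 9 and 0, against 22.4% and 3.48% of all tested genes. The median over these 13 as deposited was 0.75, with 0.65 for the 7 stress regulators and 1.16 for the 6 amino acid and one-carbon genes. The values ran from -1.61 to 2.21, the widest range of any role.

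**Figure D2:**
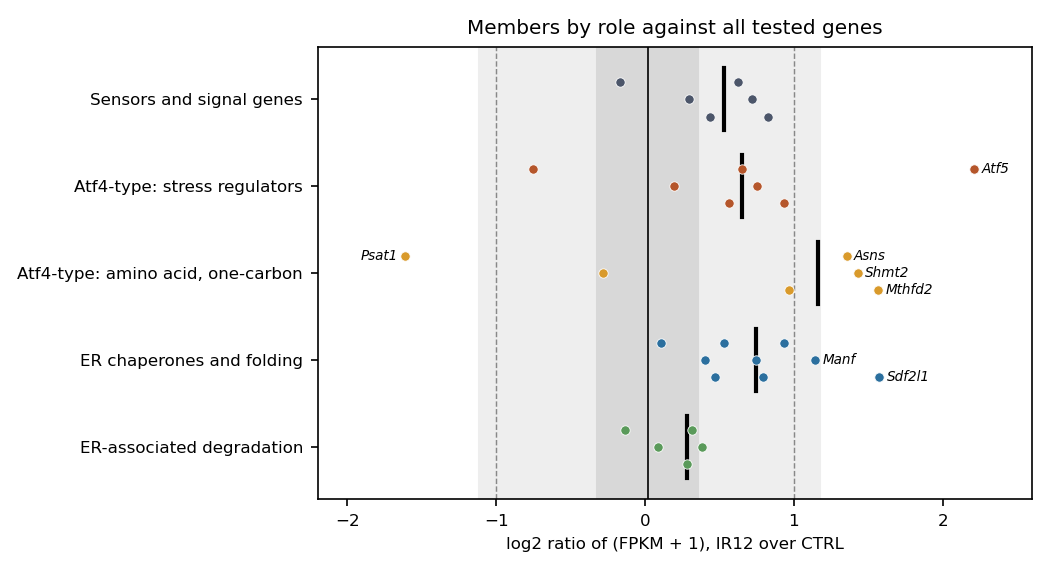
Log2 ratio of (FPKM + 1), IR12 over CTRL, of the 33 tested members by role, as deposited. Each point is a gene, thick bars are medians of the role, the thin line is the median of all tested genes (0.02), the dark band holds the middle 50% and the light band the middle 90% of all tested genes, and dashed lines mark 2-fold. The chaperones all lie to the right of 0, and the Atf4-type roles hold both the highest (*Atf5*) and the lowest (*Psat1*) value. On the TPM scale all points move right and *Ppp1r15b*, *Phgdh* and *Derl1* pass 0.

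The ER chaperones and folding enzymes formed a tighter group, in which all 9 members were higher in IR12 on each of the 3 scales. Of all tested genes, 51.8% were higher as deposited and 84.3% on the TPM scale. With the small RNAs left out, the median log2 ratio of all tested genes was -0.07. As deposited 2 of the 9 were at least 2-fold higher, against 6.56% of all tested genes. On the TPM scale 8 were, against 22.4%. *Sdf2l1*, at chr11:88122271-88124513, works with the chaperone BiP and had 3.09 FPKM in CTRL and 11.2 in IR12, or 3.61 times (log2 ratio 1.57). With a pseudocount of 5 its log2 ratio was 0.998, just short of 2-fold. *Manf*, at chr8:115623178-115626380, encodes a secreted neurotrophic factor of the ER that also binds BiP, and had 58.3 FPKM in CTRL and 129.8 in IR12, or 2.23 times (log2 ratio 1.14). Both were higher in IR12, and *Sdf2l1* was the scarcer in both libraries.

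The lectin chaperones of the calnexin cycle, which hold glycoproteins while they fold, were the most abundant of the group. *Calr*, the soluble one, had 293 FPKM in CTRL and 508 in IR12 (log2 ratio 0.79). *Canx*, the one anchored in the membrane, had 275 FPKM in CTRL and 296 in IR12 (log2 ratio 0.11), the smallest ratio of the chaperones. Nearly level in the sham retina, with 1.07 times as much *Calr* as *Canx*, they stood at 1.71 times in IR12. *Hyou1*, a large chaperone of the Hsp70 family, had 42.9 FPKM in CTRL and 72.6 in IR12 (log2 ratio 0.74).

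Of the protein disulfide isomerases, *Pdia6* had 67.5 FPKM in CTRL and 129.5 in IR12 (log2 ratio 0.93), and *Pdia4* had 34.1 FPKM in CTRL and 45.4 in IR12 (log2 ratio 0.40). *Pdia3*, the isomerase that partners with the lectin chaperones, had 155 FPKM in CTRL and 224 in IR12 (log2 ratio 0.53). The locus listed for *Pdia3* is shared with several other genes, so its value is uncertain. *Creld2*, an ER protein known as an early target of the pathway, had 12.6 FPKM in CTRL and 17.8 in IR12 (log2 ratio 0.47). Each of these 4 was higher in IR12 by less than 2-fold. The median log2 ratio of the 9 chaperones was 0.74 and their summed FPKM was 941 in CTRL and 1436 in IR12, or 1.52 times.

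ERSE, the ER stress element read by Atf6 and Xbp1, is CCAAT and CCACG with 9 bases between them, and its variant ERSE-II is ATTGG and CCACG with 1 base between. ERSE was present in 0.0657% of all windows, 22 of 33469, and in those of 5 of the 29 members: *Xbp1*, *Calr*, *Canx*, *Creld2* and *Derl3*. ERSE-II was present in 0.0508% of all windows and in those of *Hyou1* and *Herpud1*. The core of the UPR element, TGACGTGG, was present in 0.595% of all windows and in 1 of the 2 windows of *Hyou1*, where it overlaps an ERSE-II. These stretches are shown because rare letters recur across members with different ratios, with the matches in capitals, 5′ to 3′ in the direction of the gene on GRCr8.
Xbp1, chr14:84604538-84604596: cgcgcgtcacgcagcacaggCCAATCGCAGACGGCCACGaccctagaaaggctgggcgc
Calr, chr19:40213117-40213173: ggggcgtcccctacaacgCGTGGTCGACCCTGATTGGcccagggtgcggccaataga
Canx, chr10:35158049-35158107: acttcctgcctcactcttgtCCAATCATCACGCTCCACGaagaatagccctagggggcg
Creld2, chr7:121789219-121789277: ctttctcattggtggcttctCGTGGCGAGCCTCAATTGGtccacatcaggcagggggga
Hyou1, chr8:53602671-53602824: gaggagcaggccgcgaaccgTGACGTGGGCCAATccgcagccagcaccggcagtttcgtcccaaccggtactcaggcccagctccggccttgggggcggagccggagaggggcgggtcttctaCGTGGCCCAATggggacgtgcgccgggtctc
Herpud1, chr19:10614801-10614911: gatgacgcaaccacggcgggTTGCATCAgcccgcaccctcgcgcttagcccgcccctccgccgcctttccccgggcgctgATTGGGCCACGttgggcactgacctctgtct
Derl3, chr20:12766581-12766639: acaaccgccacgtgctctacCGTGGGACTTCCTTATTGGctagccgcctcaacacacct
In *Xbp1* and *Canx* the ERSE reads along the gene, and in *Calr*, *Creld2* and *Derl3* on the opposite strand, so that CCACG shows as CGTGG. The ERSE begins 65 bases before the start in *Xbp1*, 232 in *Calr*, 230 in *Canx*, 145 in *Creld2* and 154 in *Derl3*. *Hyou1* holds ERSE-II letters that begin 188 and 88 bases before the start, both on the opposite strand. *Herpud1* is the only member window with both a CARE match, 184 bases before the start, and an ERSE-II match, 124 bases before it. Of the tested members with ERSE letters in the window, *Calr* and *Xbp1* had log2 ratios of 0.79 and 0.83, *Creld2* had 0.47 and *Canx* 0.11, so members with the same letters differed in ratio. *Sdf2l1* held none of the 4 motifs in its window.

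The members of ER-associated degradation stood closest to the rest of the table. *Sel1l*, the scaffold of the ubiquitin ligase complex at the ER, had 88.9 FPKM in CTRL and 116 in IR12 (log2 ratio 0.38), the highest level and the highest ratio of the role. Its partner *Syvn1*, the ligase HRD1, had 6.39 FPKM in CTRL and 7.98 in IR12 (log2 ratio 0.28), and shares its listed locus with *Mrpl49*. *Herpud1*, which links the complex to its substrates, had 29.9 FPKM in CTRL and 37.4 in IR12 (log2 ratio 0.32). These 3 were higher in IR12 by less than 1.5-fold.

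*Edem1*, which hands misfolded glycoproteins to the ligase complex, had 13.3 FPKM in CTRL and 14.2 in IR12, with a log2 ratio of 0.08 as deposited and -0.01 with the small RNAs left out of the scaling. *Derl1*, part of the channel for export from the ER, had 38.3 FPKM in CTRL and 34.8 in IR12, with a log2 ratio of -0.13 as deposited and 0.50 on the TPM scale. The direction of this pair therefore depends on the scaling. *Derl3* was listed at 0 in both libraries, on the unplaced contig AABR07024104.1, as was its neighbour *Smarcb1*. All 45 genes on contigs with names of this kind were listed at 0, and so was the housekeeping gene *Hprt1*, so a listed 0 does not show that *Derl3* was silent. The median log2 ratio of the 5 tested degradation members was 0.28, and none was 2-fold higher or lower as deposited. On the TPM scale 1 of the 5 was at least 2-fold higher, against 22.4% of all tested genes.

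Set side by side, the Atf4-type targets and the chaperones differed more in the range of their log2 ratios than in the median. The difference of their median log2 ratios, Atf4-type targets minus chaperones, was 0.01 as deposited, and it was -0.12 on the TPM scale, -0.20 with a pseudocount of 5 and 0.20 with a pseudocount of 0.1. The distance from the lowest to the highest log2 ratio was 3.82 among the 13 Atf4-type targets and 1.47 among the 9 chaperones. Such a distance can grow with the number of genes, and among the Atf4-type targets it rests on *Psat1* and *Atf5*. The log2 ratio of *Atf5*, scarce in CTRL, was 1.29 with a pseudocount of 5. Taken apart, the stress regulators gave a difference of -0.09 from the chaperones, and the amino acid and one-carbon genes one of 0.42. With 1 library per condition it was not tested whether either role stood apart from the other.

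**Figure D3:**
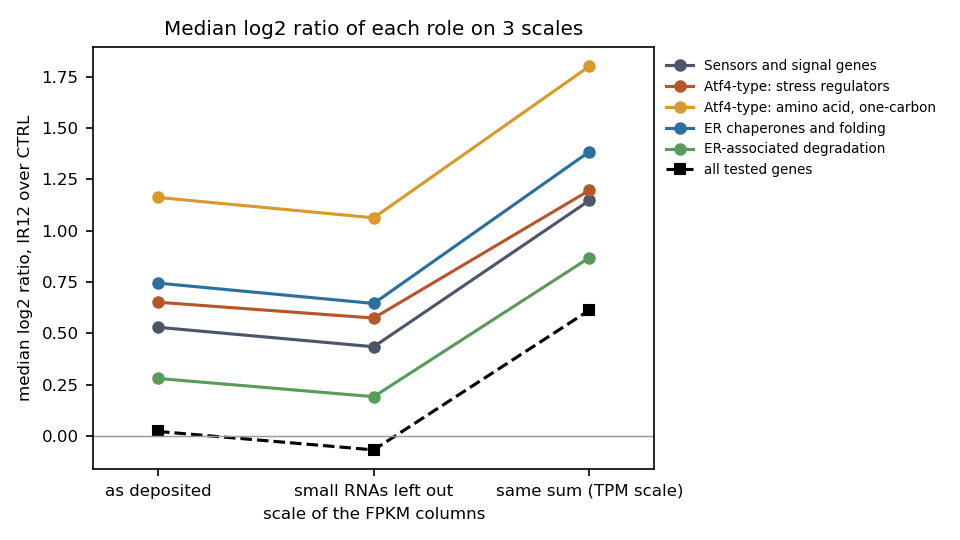
Median log2 ratio of each role, IR12 over CTRL, with the FPKM columns as deposited, brought to the same sum with small RNAs left out, and brought to the same sum with every gene (TPM scale). Colored lines are the 5 roles and the dashed line all tested genes, whose median moves from 0.02 to -0.07 and 0.61. Degradation is the lowest (0.28, 0.19 and 0.87) and amino acid and one-carbon genes the highest (1.16, 1.06 and 1.80), an order that a common factor can move only through the pseudocount.

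Other genes of the pathways that are not members were taken from 7 lists with 98 genes, 87 of them tested. Past 2-fold were 10 of them (11.5%) with the higher value in IR12 and 1 (1.15%) with the lower, against 6.56% and 6.12% of all tested genes. Their median log2 ratio was 0.34. On the TPM scale 38 were higher past 2-fold and 0 lower, against 22.4% and 3.48% of all tested genes, and the median was 0.96. With the small RNAs left out of the scaling 7 were higher past 2-fold, as *Sec61a1*, *Mars* and *Ube2j1* lost their calls. On that scale 1 was lower past 2-fold, and of all tested genes 5.78% were higher and 6.91% lower. The chaperone BiP, encoded by *Hspa5* and the partner of *Sdf2l1* and *Manf*, had 204 FPKM in CTRL and 483 in IR12 (log2 ratio 1.24), a higher ratio than 8 of the 9 member chaperones. Of the 20 other ER chaperones, 2 were at least 2-fold higher, *Hspa5* and the translocon subunit *Sec61a1* (18.3 and 38.4 FPKM), and 12 were higher as deposited against 20 on the TPM scale, where 84.3% of all tested genes were higher. *Hsp90b1*, or GRP94, was the most abundant by the sum of both libraries, with 294 FPKM in CTRL and 450.1 in IR12. The median log2 ratio of this list was 0.18, against 0.74 for the member chaperones.

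The tRNA synthetases, which charge tRNAs with amino acids and are known Atf4 targets, formed a list of 13. All 13 genes of the list, 12 synthetases and the tRNA exporter *Xpot*, were higher in IR12 on each of the 3 scales. Of all tested genes, 51.8% were higher as deposited and 84.3% on the TPM scale. The median log2 ratio of the list was 0.86 as deposited. The list was led by *Tars* (22.9 FPKM in CTRL and 83.6 in IR12, log2 ratio 1.83) and *Yars* (25.7 and 68.4 FPKM, log2 ratio 1.38). *Aars*, the most abundant, had 86.9 FPKM in CTRL and 198 in IR12 (log2 ratio 1.18), and *Mars*, at the locus shared with *Ddit3*, was also past 2-fold (log2 ratio 1.04).

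Of the 8 tested factors and targets of the integrated stress response outside the members, 1 was at least 2-fold higher. This was *Atf3*, a factor known as an early response of injured neurons as well as an Atf4 target, with 2.62 FPKM in CTRL and 94.5 in IR12, or 36.1 times (log2 ratio 4.72). The most abundant of the list was *Crebrf*, with 254 FPKM in CTRL and 241 in IR12. Of the 10 eIF2 kinases and eIF2 subunits or regulators, the kinase PKR, encoded by *Eif2ak2* and activated by double-stranded RNA, was at least 2-fold higher (9.78 and 35.4 FPKM, log2 ratio 1.76). The most abundant, *Ppp1cb*, the catalytic subunit that the Ppp1r15 proteins guide to eIF2, had 185 FPKM in CTRL and 143 in IR12.

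Of the 11 tested amino acid genes, *Slc1a5*, a glutamine carrier, was at least 2-fold higher (0.521 FPKM in CTRL and 21.8 in IR12, log2 ratio 3.91) but was tested only because of its level in IR12. *Slc7a3*, a carrier of cationic amino acids, was at least 2-fold lower (6.94 and 2.87 FPKM, log2 ratio -1.04). It was lower by less than 2-fold on the TPM scale (-0.53) and with a pseudocount of 5 (-0.60). The most abundant carrier, *Slc38a2*, had 52.4 FPKM in CTRL and 53.8 in IR12. Of the 15 other degradation genes, *Ube2j1*, a ubiquitin-conjugating enzyme of the ER, was at least 2-fold higher (89.3 and 188 FPKM, log2 ratio 1.07), and the most abundant was the segregase *Vcp* (181 and 241 FPKM). Of the 10 tested ER signal genes none was 2-fold higher or lower, and the most abundant by the sum of both libraries, *Creb3*, had 44.0 FPKM in CTRL and 51.9 in IR12. The median log2 ratio was 0.19 for the degradation genes, 0.18 for the amino acid genes and 0.20 for the factors and targets of the integrated stress response. It was 0.23 for the ER signal genes and 0.65 for the 10 eIF2 kinases and eIF2 subunits or regulators, of which 9 were higher in IR12.

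**Figure D4:**
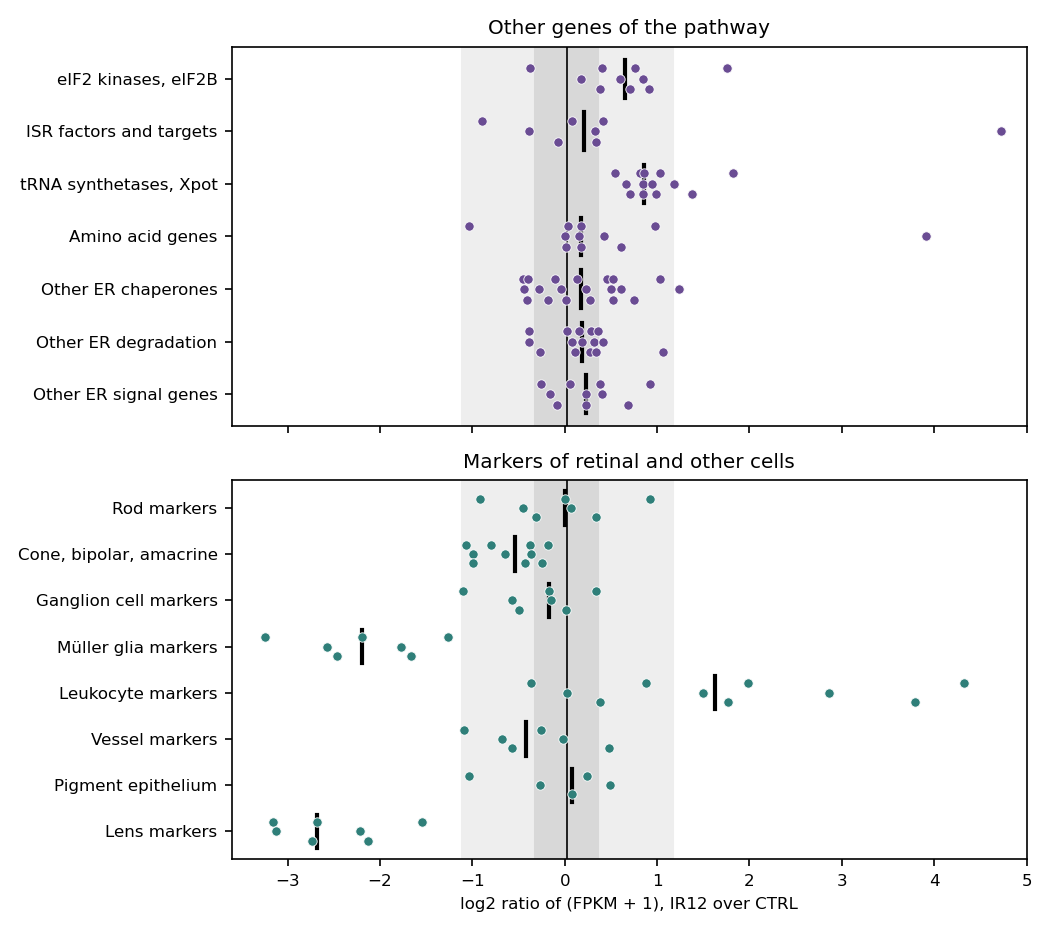
Log2 ratio of (FPKM + 1), IR12 over CTRL, as deposited, of the other pathway genes (above) and of cell markers (below). Each point is a tested gene, thick bars are list medians, the thin line and the bands are the median, middle 50% and middle 90% of all tested genes. All 13 genes of the tRNA synthetase list lie right of 0, and all 7 Müller glia and all 7 lens markers lie past 2-fold to the left, though on the TPM scale 6 of the 7 Müller glia markers do.

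Markers of cell types moved between the libraries as well, and in bulk tissue fewer cells of a type and less RNA per cell cannot be told apart. The rod list was shortened by 1 marker after the values were seen, for a reason other than the values, so what follows describes the 8 kept markers and not rods as a whole. Of these, 7 had a row and none was at 0. *Gnat1*, the most abundant by the sum of both libraries, had 4027 FPKM in CTRL and 4237 in IR12. As deposited none of the kept markers was past 2-fold, but 1 was higher on the TPM scale and 1 lower with the small RNAs left out. The kept markers summed to 10282 and 11953, a difference carried by *Sag* (2482 and 4703), while *Rcvrn* was lower (1558 and 825). Its part in the values of the members was not tested. All 7 Müller glia markers were at least 2-fold lower in IR12, their sum going from 1928 FPKM (CTRL) to 468 (IR12), with *Glul* the most abundant by the sum of both libraries (754 and 126), and none was at 0. *Psat1* was lower in the same library, and the part of the Müller glia in this was not tested. Of the 10 leukocyte markers, 6 were at least 2-fold higher in IR12, with a summed FPKM of 21.8 in CTRL and 138 in IR12, *Lyz2* the most abundant (9.73 and 76.9) and *S100a8* at 0 in CTRL. Of these 6, *Lyz2* alone reached 1 FPKM in CTRL, and the other 5 were tested only because of their level in IR12. Their part in the higher values of the members was not tested either.

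The other marker lists gave further shifts. The 7 lens markers, with *Cryaa* in front (1118 FPKM in CTRL and 124 in IR12), were all at least 2-fold lower in IR12 and summed to 1770.4 and 205. The 10 markers of cones, bipolar and amacrine cells were all lower as deposited, summing to 765 and 524 with *Trpm1* the most abundant. On the TPM scale 5 of the 10 had the higher value in IR12, against 84.3% of all tested genes. The 8 ganglion cell markers summed to 331 and 269, led by *Nefl*. Of 7 tested, 1 was at least 2-fold lower as deposited and none on the TPM scale. There 6 of the 7 had the higher value in IR12, near the share of all tested genes. The vessel markers, 6 of 7 with a row, summed to 158 and 94.8, led by *Kdr*, with 1 of them at least 2-fold lower as deposited and none on the TPM scale. The 6 pigment epithelium markers summed to 90.6 and 108, a difference carried by *Ttr* (61.8 and 87.4), while *Rpe65* was at least 2-fold lower as deposited (11.1 and 4.88) but not on the TPM scale. The 3 blood markers summed to 21.6 and 35.5, nearly all of it *Hbb*. Of 9 tested reference genes, 2 were at least 2-fold higher and none lower as deposited. On the TPM scale 3 were at least 2-fold higher, and 1 with the small RNAs left out. The shares of all tested genes at least 2-fold higher on these 3 scales were 6.56%, 22.4% and 5.78%. The most abundant reference gene, *Ppia*, had 832 FPKM in CTRL and 903 in IR12. The part of any of these in the values of the stress response genes was not tested.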

How the data were processed

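Gene FPKM values were deposited by the authors, 1 column for CTRL and 1 for IR12. The submitters' processing notes name STAR 2.5.2b, Cuffdiff 2.2.0 and the build rn6, without their order. The labels name a stranded total RNA kit with Ribo-Zero Gold and the series design a stranded mRNA kit with the same depletion. The paper, like the labels, names the total RNA kit. Loci are printed with starts 1 above the listed 0-based ones. Members were matched by their exact symbol, and list genes with no such row by an older or newer symbol. The log2 ratio used a pseudocount of 1, a minimum FPKM of 1 in at least 1 library and a 2-fold limit. No p-value was computed, since each condition has 1 library. Members and lists were chosen with earlier results of these data known. Named were the members, of each pathway list the genes past 2-fold (up to 4) and the most abundant, and of each marker list the most abundant and those at 0. Outside this rule, *Sesn1*, *Sesn3*, *Xpot*, *Mrpl49* and the synthetases without a promoter match were named too. The rod list was shortened by 1 marker after the values were seen, for a reason other than the values. *Psph*, *Smarcb1*, *Sag*, *Rcvrn*, *Rpe65* and the genes named for a promoter match were added after their values were seen. Alternatives were a pseudocount of 0.1 or 5, centring on the median gene, the TPM scale, no minimum or one of 5 FPKM, genes without a shared locus, a 1.5-fold limit, means in place of medians and, chosen after seeing the data, a scale without small RNAs and a minimum in both libraries. Promoter windows came from RefSeq (GRCr8). The scripts were tested on simulated data. Python 3.11.15, numpy 2.4.6, pandas 2.3.3 and matplotlib 3.10.9 were used.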

Additional observations from a re-analysis of the deposited data

How the results depend on the processing

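Each of 11 results was computed again under the alternatives, 114 values in all. Of these, 77 stayed within 1.5 times of a count or within 0.1 of a median, 32 moved further without a change of sign and 5 changed sign. Those that moved include counts of lower genes that fell to 0. Members at least 2-fold higher numbered 22 on the TPM scale and 16 with a 1.5-fold limit, and members at least 2-fold lower 0 and 2. Other pathway genes numbered 38 and 29 higher and 0 and 2 lower under the same alternatives, and 0 lower with a pseudocount of 5. Over all tested genes, 3051 higher and 473 lower were found on the TPM scale, 2007 and 1861 with a 1.5-fold limit, 432 and 445 with a pseudocount of 5, and 535 and 513 with a minimum in both libraries, an alternative chosen after seeing the data; 552 were lower without genes that share a locus. On the TPM scale the medians were 1.27 for Atf4-type targets, 1.38 for chaperones, 0.87 for degradation members and 1.15 for sensors and signal genes, the last being 0.41 with a pseudocount of 5. The median of Atf4-type targets was 0.95 with a pseudocount of 0.1, 0.49 with one of 5, 0.95 with a minimum FPKM of 5, 0.65 for stress regulators alone and 1.16 for amino acid and one-carbon genes alone, and their mean was 0.61. The difference from chaperones changed sign with a pseudocount of 5 (-0.20), on the TPM scale (-0.12), without shared loci (-0.0901), as a difference of means (-0.13) and for stress regulators alone (-0.0932), and was 0.20 with a pseudocount of 0.1, 0.21 with a minimum FPKM of 5 and 0.42 for amino acid and one-carbon genes alone. The cause was not tested. No paired analysis was possible because each condition has 1 library.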

Other observations

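Promoter letters and log2 ratios could be set side by side in genes beyond the members. The counts of genes with given letters over the whole table include members. Of the tRNA synthetase list, 11 genes were tested and had a RefSeq window, and 7 of them held the CARE letters: *Aars*, *Cars*, *Iars*, *Mars*, *Nars*, *Tars* and *Yars*, against 3.98% of all windows. The median log2 ratio of these 7 was 1.04, with values from 0.67 to 1.83. The 4 without the letters, *Eprs*, *Lars*, *Sars* and *Wars*, had a median of 0.76, with values from 0.54 to 0.85. The values of the groups overlapped. Over the whole table, 214 tested genes held the letters, 7.94% of them at least 2-fold higher and 2.34% at least 2-fold lower, with a median log2 ratio of 0.11. Over all 9790 tested genes with a window, 5.85% were at least 2-fold higher and 3.25% at least 2-fold lower, with a median of 0.06. Whether the letters went with a difference in ratio was not tested.

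Of the 14 tested genes with ERSE letters, members included, 11 were higher in IR12 as deposited, with a median log2 ratio of 0.46. Among them 1, *Hspa5*, was at least 2-fold higher. Without the members, 7 of 10 were higher, with a median of 0.29. Of the 9790 tested genes with a window, 5421 were higher. Besides the members, the genes with ERSE letters include the chaperone genes *Hsp90b1* (0.61) and *Dnajc3* (0.46). They also include *Ero1b*, which encodes an oxidase of disulfide bonds and stood at -0.41 (0.21 on the TPM scale). Of the 8 genes with ERSE-II letters, *Rcl1*, a gene of ribosomal RNA processing, had the highest log2 ratio, 1.58 (3.30 FPKM in CTRL and 11.8 in IR12), and *Dnajb11*, a cochaperone of BiP, followed with 0.75 (47.6 and 80.8 FPKM).

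The sestrins differed in direction as deposited. *Sesn2*, the member, was higher in IR12, whereas its relatives *Sesn1* (32.7 FPKM in CTRL and 24.8 in IR12) and *Sesn3* (64.6 and 34.4 FPKM) were lower, though *Sesn1* was higher on the TPM scale (0.24). The ratio of *Sesn2* to *Sesn3* was 0.0278 in CTRL and 0.0988 in IR12, so *Sesn3* stayed the more abundant in both libraries.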
